A study of Mus musculus with 7 samples.

Results

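Macrophages are the most abundant white blood cells of the healthy heart, where they clear debris and dying cells. Their survival depends on the receptor Csf1r, and resident cells carry scavenger receptors and secrete complement component C1q. RNA of whole hearts holds these cells as a small part beside cardiomyocytes, endothelium and fibroblasts. The 10 genes described here are in common use as macrophage markers: Csf1r, Adgre1, Cd68, Lyz2, C1qa, C1qb, C1qc, Cd163, Mrc1 and Lyve1. They were matched by gene name and are described in hearts with extra Nrf2 in cardiomyocytes. They were among 14641 genes in the count table, and all 10 passed the filter of a summed count above 1. In bulk RNA, a change in the number of macrophages and a change in RNA per macrophage cannot be told apart.

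The hearts came from male C57BL/6J mice, 4 of them non-transgenic (NTG, replicates 1 to 4) and 3 carrying full-length mouse Nrf2 (mNrf2-TG, replicates 17 to 19). The αMHC promoter drives the transgene, a promoter that is active in cardiomyocytes. The mice of both groups were 6 to 7 months old by the methods and 7 to 8 months by the design text, and the transgenic samples carry a label of 6 months. Libraries came from lysates of whole hearts by the labels, and nothing says that hearts were pooled.

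Between 6534684 and 8405857 reads per library fell on the listed genes. Nfe2l2, the gene of Nrf2, was counted 729 to 1392 times in NTG libraries and 10912 to 12839 times in mNrf2-TG libraries, transgene reads included. NTG replicate 3 stood apart, with a chi-square per degree of freedom of 16.5 to 18.2 against the other NTG libraries, which differed from each other by 2.93 to 7.71, and the markers that depend on it are given with and without it. Counts were normalized by TMM and scaled to a library of mean size. A gene passed the test at an adjusted p under 0.05 in edgeR's quasi-likelihood test, with the Benjamini-Hochberg adjustment over 14637 genes, and Log2FC is mNrf2-TG over NTG.

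Of the 10 markers, 7 rose in mNrf2-TG hearts, by 1.68-fold for Lyz2 to 2.37-fold for Cd163, and 3 did not pass the test, namely Cd68, Mrc1 and Lyve1. Thus 7 of 10 were higher and 0 lower, where 8.48% of all genes tested were higher, 8.73% lower and 17.2% either. Among genes with a mean of at least 50 normalized counts, 10.3% were higher. The same 7 had normalized counts that did not overlap between the groups, as 15.0% of all genes did in this direction and 29.7% in either. The median Log2FC of the 10 was 0.83, against 0.00 over all genes. Each of the 7 passed the test under all 14 alternative fits, including those that left out each library in turn.

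**Figure D1:**
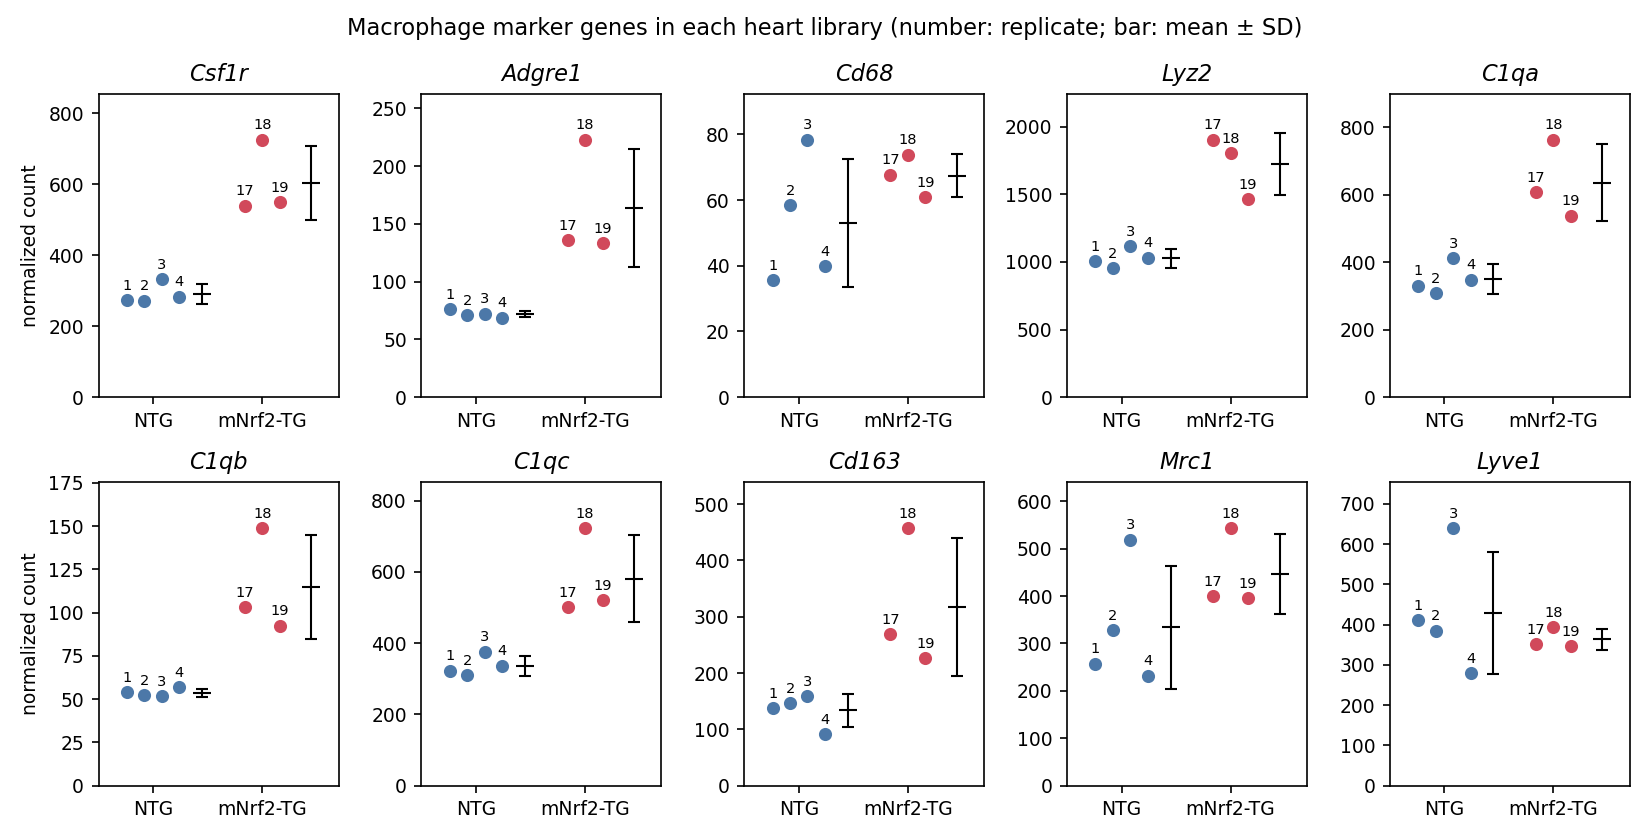
Normalized count of each macrophage marker gene (y axis, starting at 0) in the 4 NTG (blue) and 3 mNrf2-TG (red) libraries, with replicate numbers and the mean ± SD of each group in black. The groups stand apart for Csf1r, Adgre1, Lyz2, C1qa, C1qb, C1qc and Cd163, while NTG replicate 3 has the highest value of all for Cd68 and Lyve1 and lies inside the mNrf2-TG range for Mrc1.

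Csf1r (Entrez gene 12978) encodes the receptor for the growth factors Csf1 and IL-34. Its normalized counts were 274, 272, 332 and 283 in NTG replicates 1 to 4 and 539, 725 and 549 in mNrf2-TG replicates 17 to 19. All mNrf2-TG values lay above all NTG values, with the highest in replicate 18. The mean rose from 290.0 ± 28.4 (SD, n = 4) to 604 ± 105 (SD, n = 3), a Log2FC of 1.06 with a standard error of 0.12 (adjusted p = 0.000598, edgeR). The exons of Csf1r overlap those of Hmgxb3 on the opposite strand, so that 14.3% of the 50-base stretches of its transcripts occur in both genes. Whether counting used the strand was not stated. Hmgxb3, looked at for this reason after its values were seen, was at 220 ± 12.7 in NTG hearts and at 196 ± 9.69 in transgenic hearts, in normalized counts (Log2FC -0.17, adjusted p = 0.23, edgeR).

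Adgre1 (Entrez gene 13733, GRCm38 chromosome 17, 57358691 to 57483527) encodes F4/80, the adhesion receptor by which mouse macrophages are often sorted. It had 75.9, 71.1, 72.2 and 68.7 normalized counts in NTG and 136, 223 and 133 in mNrf2-TG. The NTG hearts lay close together, and mNrf2-TG replicate 18 again stood highest. The Log2FC was 1.19 with a standard error of 0.18 (adjusted p = 0.00313, edgeR). Without replicate 18 it was 0.90, the smallest value over the fits that left out a library.

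Lyz2 (Entrez gene 17105, chromosome 10, 117277331 to 117282321) encodes lysozyme M, which cleaves bacterial cell walls and is made by macrophages, monocytes and neutrophils. Normalized counts were 1007, 953, 1117 and 1030.5 in NTG and 1903, 1804 and 1464 in mNrf2-TG. The groups did not overlap, and here replicate 17 was the highest. Lyz2 rose by a Log2FC of 0.75 (standard error 0.0973, adjusted p = 0.00122, edgeR), the smallest increase among the 7 genes that passed. Its neighbour Lyz1 shares 15.4% of the 50-base stretches of the Lyz2 transcripts, so some reads of either gene could have been counted on the other. Lyz1, also looked at after its values were seen, was at 81.6 to 115 in NTG hearts and at 152 to 209 in transgenic hearts, in normalized counts (Log2FC 0.79, adjusted p = 0.00897, edgeR).

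Cd68 (Entrez gene 12514, chromosome 11, 69664213 to 69666153) encodes macrosialin, a glycoprotein of lysosomal membranes. With 31 to 76 reads per library it had the lowest mean count of the 10 genes. Its normalized counts were 35.6, 58.5, 78.4 and 39.8 in NTG and 67.8, 73.9 and 60.8 in mNrf2-TG. The groups overlapped because NTG replicate 3 lay above every mNrf2-TG library. The Log2FC was 0.34 with a 95% confidence interval of -0.22 to 0.90 (adjusted p = 0.386, edgeR), an interval that holds 0 as well as the Log2FC of C1qa and C1qc. Without NTG replicate 3 the Log2FC was 0.58 (adjusted p = 0.0723, edgeR).

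C1qa, C1qb and C1qc encode the 3 chains of C1q, the recognition molecule of the classical complement pathway, which tags debris and dying cells for uptake and in many tissues is made chiefly by macrophages. The genes lie side by side on the minus strand of chromosome 4, C1qb at 136880129 to 136886187, C1qc at 136889804 to 136893065 and C1qa at 136895917 to 136898803. None of them overlapped another annotated gene or shared a 50-base stretch of its transcripts with one.

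C1qa (Entrez gene 12259) had 329.8, 308, 412.5 and 347.5 normalized counts in NTG and 608, 763 and 537 in mNrf2-TG, and so rose by a Log2FC of 0.86 (standard error 0.13, adjusted p = 0.00288, edgeR). C1qb (Entrez gene 12260) had 54.0, 52.2, 51.6 and 56.8 in NTG and 103, 149 and 92.6 in mNrf2-TG, and so rose by a Log2FC of 1.10 (standard error 0.17, adjusted p = 0.00342). C1qc (Entrez gene 12262) had 323, 309.6, 376 and 337 in NTG and 500.3, 722 and 520.1 in mNrf2-TG, and so rose by a Log2FC of 0.79 (standard error 0.13, adjusted p = 0.00419). For each chain the groups stood apart, and mNrf2-TG replicate 18 was the highest library. Within a library, the normalized count of C1qa was 0.994 to 1.10 times that of C1qc in NTG and 1.03 to 1.22 times in mNrf2-TG. The C1qb count was 0.137 to 0.169 times that of C1qc in NTG and 0.178 to 0.206 times in mNrf2-TG.

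Among the 10 genes, RefSeq promoter windows (GRCm38.p6) were at hand for 6, namely Cd68, Lyz2, C1qb, C1qc, Cd163 and Mrc1. The 250 bases before the start were searched on both strands for GAGGAA, a form of the site of ETS factors such as PU.1, the lineage factor of macrophages, and for TGACNNNGC, the core of the antioxidant response element to which Nrf2 binds. GAGGAA was found in 23.3% of 32851 promoter windows of this length, and TGACNNNGC in 10.2%. Cd68, C1qb and C1qc each held GAGGAA 1 time, Mrc1 held it 3 times, and Lyz2 and Cd163 held neither motif. The only match to TGACNNNGC lay in C1qb, on the reverse strand, at positions -103 to -95 from the RefSeq start. These matches are letters in a window and were not tested for binding. C1qb and C1qc are printed as neighbours that rose together, Lyz2 as the most abundant of the genes that rose, and Mrc1 as a gene that did not pass the test. Sequences run 5′ to 3′ on the strand of the gene, capitals mark matches to either motif on either strand, and bases inside annotated exons are left out:
C1qb, minus strand, chr4:136886201-136886450: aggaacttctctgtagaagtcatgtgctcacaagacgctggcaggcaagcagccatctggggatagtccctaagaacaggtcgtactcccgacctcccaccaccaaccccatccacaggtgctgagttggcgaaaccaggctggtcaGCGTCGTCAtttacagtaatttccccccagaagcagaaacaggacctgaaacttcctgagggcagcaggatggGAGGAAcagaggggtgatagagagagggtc
C1qc, minus strand, chr4:136893066-136893164: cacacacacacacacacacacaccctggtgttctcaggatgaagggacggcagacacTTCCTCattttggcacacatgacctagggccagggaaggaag
Lyz2, minus strand, chr10:117282322-117282522: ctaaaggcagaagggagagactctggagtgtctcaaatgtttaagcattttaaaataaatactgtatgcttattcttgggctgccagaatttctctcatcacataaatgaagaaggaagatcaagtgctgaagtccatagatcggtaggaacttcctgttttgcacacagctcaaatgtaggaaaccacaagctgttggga
Mrc1, plus strand, chr2:14229164-14229391: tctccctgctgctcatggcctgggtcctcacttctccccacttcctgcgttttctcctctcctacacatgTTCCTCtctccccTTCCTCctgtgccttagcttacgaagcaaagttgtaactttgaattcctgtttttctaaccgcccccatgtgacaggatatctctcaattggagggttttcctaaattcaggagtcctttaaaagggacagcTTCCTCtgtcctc

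Cd163 (Entrez gene 93671, chromosome 6, 124304656 to 124330527) encodes the scavenger receptor that takes up haemoglobin bound to haptoglobin. It had 138, 147, 159 and 91.6 normalized counts in NTG and 269, 457 and 227 in mNrf2-TG. NTG replicate 4 was the lowest library and mNrf2-TG replicate 18 the highest, with no overlap between the groups. The Log2FC of 1.25 (standard error 0.25, adjusted p = 0.00852, edgeR) was the largest of the 10, and it was 0.89 without replicate 18 (adjusted p = 0.023).

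Mrc1 (Entrez gene 17533, chromosome 2, 14229392 to 14332057) encodes the mannose receptor CD206, another endocytic receptor of resident tissue macrophages. Normalized counts were 257, 328, 519 and 232 in NTG and 400.2, 543 and 395 in mNrf2-TG. NTG replicate 3 lay within the mNrf2-TG range, and the other NTG libraries lay below it. Over all libraries the Log2FC was 0.42 with a 95% confidence interval of -0.13 to 0.96 (adjusted p = 0.273, edgeR). Without NTG replicate 3 it was 0.71 and passed the test (adjusted p = 0.00954), so that 8 of the 10 genes then rose, where 20.2% of all genes passed in either direction. Without mNrf2-TG replicate 18 the Log2FC of Mrc1 was 0.25 (adjusted p = 0.598, edgeR).

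Lyve1 (Entrez gene 114332, chromosome 7, 110850607 to 110863239) encodes a hyaluronan receptor carried by a subset of resident macrophages along vessels and also by lymphatic endothelium. It had 411, 385, 639 and 279 normalized counts in NTG and 351, 393 and 346 in mNrf2-TG. The mNrf2-TG libraries lay inside the NTG range. The Log2FC was -0.24 with a 95% confidence interval of -0.73 to 0.26 (adjusted p = 0.505, edgeR), and without NTG replicate 3 it was 0.02 (adjusted p = 0.933).

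**Figure D2:**
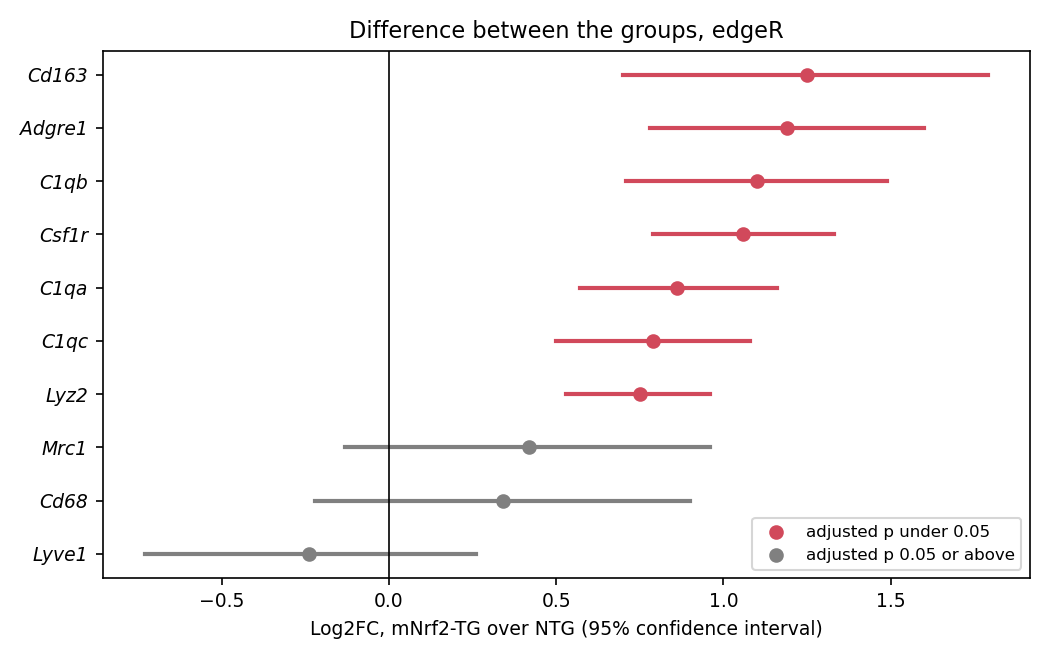
Log2FC of mNrf2-TG over NTG (x axis) for each macrophage marker gene, with 95% confidence intervals from edgeR. Points in red passed an adjusted p of 0.05 and their intervals lie above 0, from Lyz2 at 0.75 to Cd163 at 1.25, and the intervals of Mrc1, Cd68 and Lyve1 in grey hold 0.

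**Figure D3:**
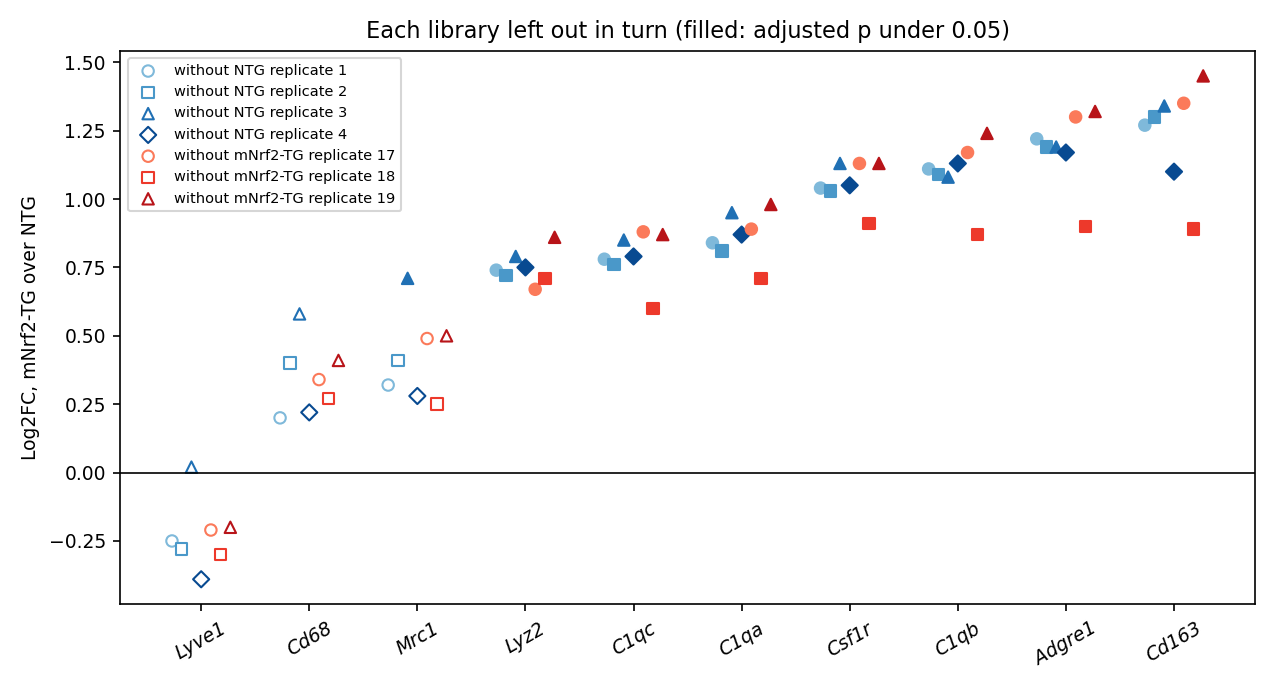
Log2FC of each macrophage marker gene (y axis) when 1 of the 7 libraries was left out, with a marker for each library and filled markers for an adjusted p under 0.05. The 7 genes on the right stay filled, their lowest values come without mNrf2-TG replicate 18, for Lyz2 without replicate 17, and without NTG replicate 3 Lyve1 is at 0.02, Cd68 at 0.58 and Mrc1, filled, at 0.71.

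To compare the markers with each other inside a heart, each was divided by Csf1r of the same library, which gave 9 ratios on the log2 scale. Lyve1 over Csf1r was 0.59, 0.50, 0.94 and -0.02 in NTG and -0.62, -0.88 and -0.67 in mNrf2-TG, with no overlap. The difference in the mean log2 ratio was -1.23 (two-sided exact permutation test over 35 splits, p = 0.0286, the smallest this design allows). For C1qc over Csf1r it was -0.28, also without overlap (exact permutation p = 0.0286). The ratios of C1qa (-0.19), Cd68 (-0.64) and Mrc1 (-0.58) were lower without overlap too, and that of Lyz2 (-0.31) was lower with overlap. Since Csf1r itself rose, 74.0% of all other genes had a lower ratio to it without overlap, and the median difference over these genes was -1.04. After the Benjamini-Hochberg adjustment over the 9 ratios, Lyve1 and C1qc over Csf1r both had an adjusted permutation p of 0.129, and none of the 9 passed. With 35 splits, a ratio at the smallest p could pass this adjustment only if most of the 9 were there too. The adjusted values therefore cannot decide on any single ratio. Adgre1, C1qb and Cd163 had differences of 0.09, 0.01 and 0.16 in this log2 ratio, with overlap between the groups.

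Levels were compared between genes as reads per kilobase of merged exons, scaled to the library total (the RPKM scale). In NTG the order was Lyz2 (103 ± 5.52), C1qa (44.2 ± 5.01), C1qc (22.9 ± 1.63), Lyve1 (19.3 ± 6.46), Mrc1 (6.87 ± 2.53), Csf1r (6.61 ± 0.534), C1qb (6.50 ± 0.366), Cd68 (5.54 ± 1.94), Cd163 (3.22 ± 0.676) and Adgre1 (2.93 ± 0.132). The neighbours C1qc and Lyve1, those from Mrc1 to Cd68, and Cd163 and Adgre1 were within their SD of each other. In mNrf2-TG, Lyz2 (176 ± 21.4), C1qa (82.1 ± 13.9) and C1qc (40.4 ± 8.16) again led. Lyve1 (16.7 ± 1.03), C1qb (14.2 ± 3.52) and Csf1r (14.1 ± 2.30) then overlapped within their SD, and Mrc1 (9.40 ± 1.67), Cd163 (7.80 ± 2.92), Cd68 (7.21 ± 0.603) and Adgre1 (6.79 ± 2.04) closed the order. C1qb had the lowest level of the C1q chains in both groups.

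Further macrophage genes came from lists by known role, which were drawn up with earlier results of these data known. In a list of 24 other macrophage genes, 9 rose, 0 fell and 15 did not pass, where 8.48% of all genes were higher, and the median Log2FC was 0.63. Without mNrf2-TG replicate 18, 4 of the 24 rose, since Aif1, Tyrobp, Mpeg1, Cd84 and Stab1 no longer passed. In that fit 10.2% of all genes passed in either direction. Without NTG replicate 1 or 2, 5 of the 24 rose, where 1603 and 1597 of 14625 genes passed in either direction. Cx3cr1, the fractalkine receptor, was counted 4 to 24 times in NTG and 41 to 60 times in mNrf2-TG libraries, and it rose by a Log2FC of 2.11 (standard error 0.47, adjusted p = 0.0137, edgeR), which did not pass without mNrf2-TG replicate 19 (adjusted p = 0.0513). Trem2, a lipid-sensing receptor, had 3 to 9 and 17 to 28 reads, a Log2FC of 1.81 (adjusted p = 0.00832). Cybb, the catalytic subunit of the phagocyte NADPH oxidase, rose from a mean of 53.6 ± 10.4 to one of 166 ± 86.3 (Log2FC 1.62, adjusted p = 0.00718), with 264 in replicate 18 against 129 and 103.5 in the others. Among those that did not pass were the monocyte coreceptor Cd14 (Log2FC -0.05, 95% confidence interval -0.54 to 0.44), the integrin Itgam (-0.25, interval -0.98 to 0.48) and the pan-leukocyte tetraspanin Cd53 (-0.04, interval -0.50 to 0.41).

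Of 8 ligands of Csf1r and lineage factors, 1 rose, where 8.48% of all genes did. It was the transcription factor Cebpa (Log2FC 0.84, standard error 0.20, adjusted p = 0.0182, edgeR), which did not pass without mNrf2-TG replicate 17 (adjusted p = 0.0533) or 18 (0.0733). Maf, a transcription factor of resident macrophages, had a Log2FC of 0.40 (adjusted p = 0.228) and passed without NTG replicate 3 (0.00554). With other libraries left out, its adjusted p in edgeR was up to 0.447. The ligand Csf1 was at 526 ± 131 in NTG hearts and 685 ± 126 in transgenic ones (Log2FC 0.38, adjusted p = 0.213), and the ligand Il34 had 43.3 ± 9.39 and 35.0 ± 6.77 (Log2FC -0.30, adjusted p = 0.385). Spi1, which encodes PU.1, had a Log2FC of 0.45 (adjusted p = 0.309).

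Resident and recruited cells are often told apart by further markers. Among 6 genes of resident macrophages, with a median Log2FC of 0.60, 2 rose and 0 fell, where 8.48% of all genes rose and 8.73% fell. DESeq2 and limma-voom each called 4 of the 6, all higher, namely these 2 with Cbr2 and F13a1, and edgeR did so without NTG replicate 3. In these fits 18.8%, 17.3% and 20.2% of all genes passed in either direction. Without mNrf2-TG replicate 17 or 18, edgeR called 0 of the 6, where 9.39% and 10.2% of all genes passed. Cbr2, a carbonyl reductase gene, had a Log2FC of 0.73 (adjusted p = 0.0847, or 0.000857 without NTG replicate 3), and F13a1, which encodes a chain of coagulation factor XIII, had one of 0.64 (0.056, or 0.00333). With other libraries left out, edgeR's adjusted p was up to 0.21 for Cbr2 and 0.203 for F13a1. Folr2, the folate receptor beta, rose from a mean of 97.0 ± 10.9 to one of 142 ± 15.5 (Log2FC 0.55, adjusted p = 0.0175, edgeR), but did not pass without mNrf2-TG replicate 17 or 18 (adjusted p = 0.0518 and 0.0709). Gas6, a ligand that bridges dying cells to phagocytes and is also made by other heart cells, rose from 1165 ± 72.0 to 1421 ± 48.8 (Log2FC 0.29, adjusted p = 0.0221) and passed in 2 of the 7 fits that left out a library. Timd4, which marks long-lived resident macrophages, was at 16.2 ± 5.30 and 29.3 ± 14.8 (Log2FC 0.85, adjusted p = 0.147).

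Of 6 genes of recruited monocytes, with a median Log2FC of -0.50, 1 rose and 1 fell, where 8.48% of all genes rose and 8.73% fell. Ccr2, the chemokine receptor of monocytes that enter tissue, was counted 10 to 22 times in NTG and 26 to 58 times in mNrf2-TG libraries, and it rose by a Log2FC of 1.20 (standard error 0.35, adjusted p = 0.0427, edgeR). It did not pass in limma-voom (adjusted p = 0.062) and passed in 2 of the 7 fits that left out a library. Ly6c2, a surface antigen of monocytes that is also found on endothelium, fell from a mean of 339.6 ± 29.9 to one of 233 ± 43.1 (Log2FC -0.54, adjusted p = 0.0174), and did not pass without mNrf2-TG replicate 17 or 19 (adjusted p = 0.0694 and 0.0626).

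Downstream of C1q, none of 10 genes of the complement pathway and its receptors passed edgeR's test with the main settings. C1rl passed with scaling by library totals and under each stricter filter of low counts, where 16.5% to 22.3% of all genes passed. At an unadjusted p under 0.05, 5 of the 10 passed, where 32.2% of all genes did. DESeq2's Wald test called 4 after adjustment (C3 and C1s1 lower, C1rl and C3ar1 higher), and limma-voom called 2 (C3 lower, C1rl higher). Of all genes, these tools called 18.8% and 17.3%. The protease gene C1s1, whose product cleaves C4 and C2 once C1q has bound, was at 293 ± 113 in NTG hearts and 156 ± 37.9 in transgenic ones (Log2FC -0.91, adjusted p = 0.0626, edgeR, or 0.00947 without NTG replicate 4). C3 was at 1231.5 ± 162 and 810.1 ± 296 (Log2FC -0.60, adjusted p = 0.0647, or 0.00367 without mNrf2-TG replicate 18). In the other direction, C1rl, a gene related to the protease C1r, had a Log2FC of 1.11 (adjusted p = 0.0522, or 0.0163 without NTG replicate 4). C3ar1, the receptor for the C3a fragment, had one of 0.97 (0.0705, or 0.00477 without NTG replicate 3). C4b had one of 1.37 (0.107, or 0.0243 without mNrf2-TG replicate 19), with 320 normalized counts in replicate 18 against 91.5 and 44.5 in the other transgenic hearts. With other libraries left out, edgeR's adjusted p was up to 0.195 for C1s1, 0.204 for C3 and 0.134 for C1rl. It was up to 0.252 for C3ar1 and 0.713 for C4b, and the smallest Log2FC of C4b in these fits was 0.19. Of the 10 values of Log2FC, 6 were above 0.

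Cd68 is a lysosomal protein, and of 12 other lysosomal genes 4 rose and 1 fell, where 8.48% of all genes rose and 8.73% fell. Ctsd, the protease cathepsin D, rose from a mean of 10839 ± 666 to one of 17129 ± 1225 (Log2FC 0.66, standard error 0.0734, adjusted p = 0.000537, edgeR), and Grn, the progranulin gene, from 572 ± 10.5 to 879 ± 102 (Log2FC 0.62, adjusted p = 0.00146). Ctsl, cathepsin L, fell by 0.28 on the log2 scale (adjusted p = 0.0223), and did not pass without NTG replicate 4 (0.0518) or mNrf2-TG replicate 18 (0.0828) or 19 (0.0561). Lysosomal genes are expressed widely among cell types.

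Over these lists and the MHC class II genes together, 17 of 71 genes rose and 2 fell, and the median Log2FC was 0.38. Among all genes tested, 8.48% rose, 8.73% fell and 17.2% did either. The number that passed was 9 without mNrf2-TG replicate 17, 8 without replicate 18, and 11 without NTG replicate 1 or 2. It was 21 without NTG replicate 3. Of all genes, 9.39% passed without mNrf2-TG replicate 17, 10.2% without replicate 18 and 20.2% without NTG replicate 3. Without NTG replicate 1 or 2, 1603 and 1597 of 14625 genes passed. Without mNrf2-TG replicate 18, the 8 of 71 thus lay near the share over all genes.

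**Figure D4:**
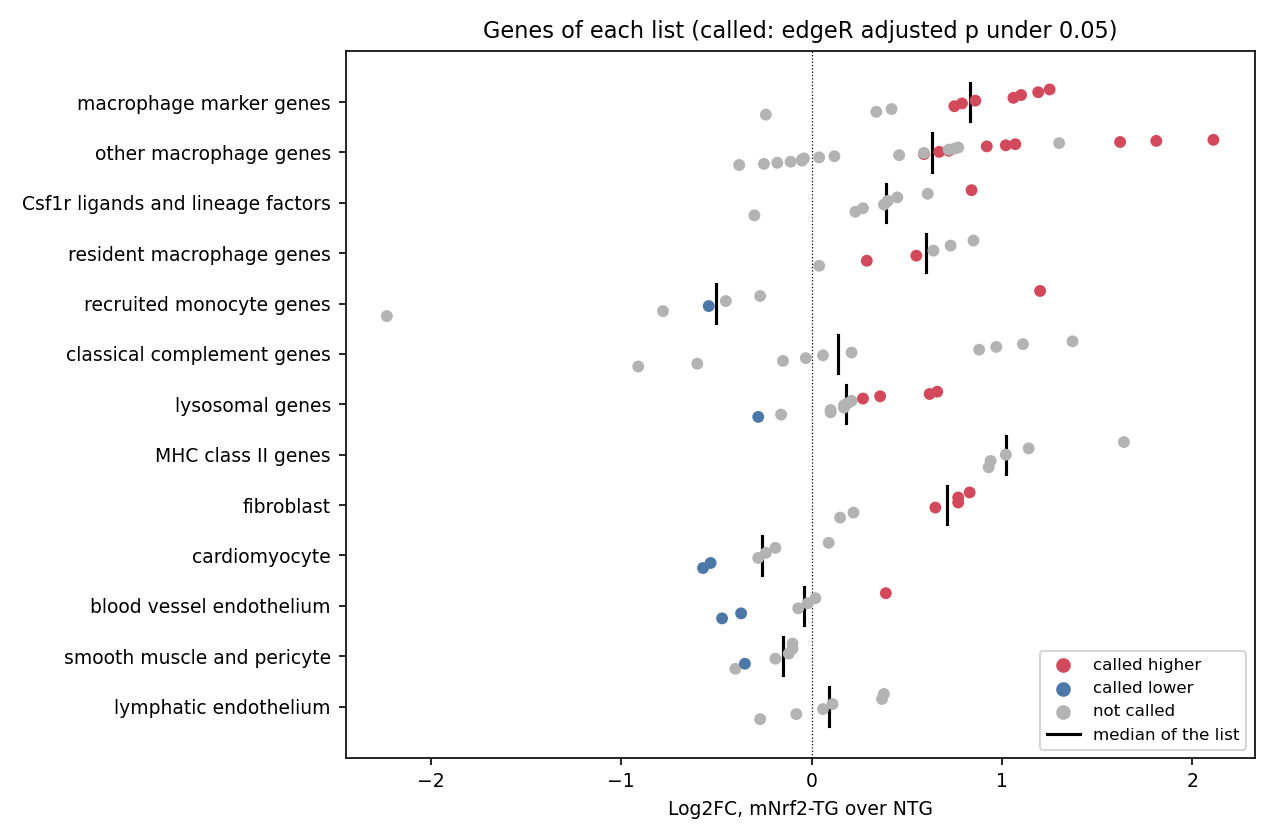
Log2FC of mNrf2-TG over NTG (x axis) for every gene of each list shown, with genes that rose in red, genes that fell in blue, genes that did not pass in grey, and the median of the list as a black bar. Lists of other blood cells, dendritic cells, adipocytes and the atrium are not drawn. Among the lists shown, medians of 0.60 or more are those of the MHC class II genes (1.02), the macrophage markers (0.83), the fibroblast genes (0.71), the other macrophage genes (0.63) and the resident macrophage genes (0.60). The lowest among them are those of the recruited monocyte genes (-0.50) and the cardiomyocyte genes (-0.26).

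Markers of other cell types moved as well, where 8.48% of all genes rose and 8.73% fell. The summed normalized count of the 10 macrophage markers ran from 2765 to 3756 over NTG hearts and from 4325 to 5852 over transgenic ones. That of 6 fibroblast genes ran from 7884 to 9806 and from 10474 to 11636, with 4 of 6 higher, among them Col1a2 (Log2FC 0.83, adjusted p = 0.00153, edgeR) and Col3a1 (0.77, adjusted p = 0.0137, or 0.0537 without mNrf2-TG replicate 19). Without that replicate 1 of the 6 fibroblast genes rose, where 11.2% of all genes passed in either direction. The sum of 6 cardiomyocyte genes ran from 500598 to 534173 and from 425164 to 445701, with 2 of 6 lower, the myosin light chain Myl2 (Log2FC -0.57, adjusted p = 0.00165) and the troponin Tnni3 (-0.53, adjusted p = 0.000716). Their part in the increase of the macrophage markers was not tested.

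In blood vessel endothelium, 2 of 6 genes fell and 1 rose, where 8.73% of all genes fell and 8.48% rose. The adhesion molecule Pecam1, which macrophages and platelets also carry, fell (Log2FC -0.47, adjusted p = 0.00214, edgeR), as did the cadherin gene Cdh5 (-0.37, adjusted p = 0.0219), which did not pass without NTG replicate 2 or mNrf2-TG replicate 17 or 18. The receptor Kdr rose (0.39, adjusted p = 0.048) with overlap between the groups, did not pass in limma-voom (0.052), and passed in 2 of the 7 fits that left out a library. The 6 lymphatic endothelial genes, of interest because that endothelium also carries Lyve1, summed to 620.1 to 875 in NTG hearts and 703 to 828 in transgenic ones. None of these 6 passed in edgeR, DESeq2 or limma-voom with every library, where 17.2%, 18.8% and 17.3% of all genes did. In edgeR, 1 of the 6 had an unadjusted p under 0.05, where 32.2% of all genes did. Flt4, lower, passed in edgeR without mNrf2-TG replicate 18. Among 6 smooth muscle and pericyte genes 1 passed, where 17.2% of all genes did. It was the pericyte gene Rgs5, which was lower (Log2FC -0.35, adjusted p = 0.0165). It did not pass without NTG replicate 1 (0.0503) or mNrf2-TG replicate 17 (0.067).

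Most lists of other blood cells left few reads, the red blood cell genes apart. The 7 neutrophil genes summed to 44.8 to 71.1 in NTG hearts and 11.8 to 66.0 in transgenic ones, and the 5 T cell genes to 62.9 to 119.7 and 75.9 to 98.9. The 3 B cell genes summed to at most 19.4 in any library and the 3 NK cell genes to at most 7.88. The 5 mast cell genes summed to 69.1 to 103 and 51.2 to 64.6, the 4 red blood cell genes to 3229.5 to 4994 and 2199 to 4988, the 2 atrial genes to 15.3 to 30.9 and 23.7 to 59.9, and the 2 adipocyte genes to at most 6.35. No gene of these lists passed in edgeR, DESeq2 or limma-voom, where 17.2%, 18.8% and 17.3% of all genes did. In edgeR, 2 neutrophil, 2 mast cell and 1 atrial gene had an unadjusted p under 0.05, as did 32.2% of all genes. The mast cell protease gene Mcpt4, lower, and the atrial gene Myl4, higher, passed without NTG replicate 3 or without mNrf2-TG replicate 17. The neutrophil gene S100a9, lower, passed without mNrf2-TG replicate 18.

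**Figure D5:**
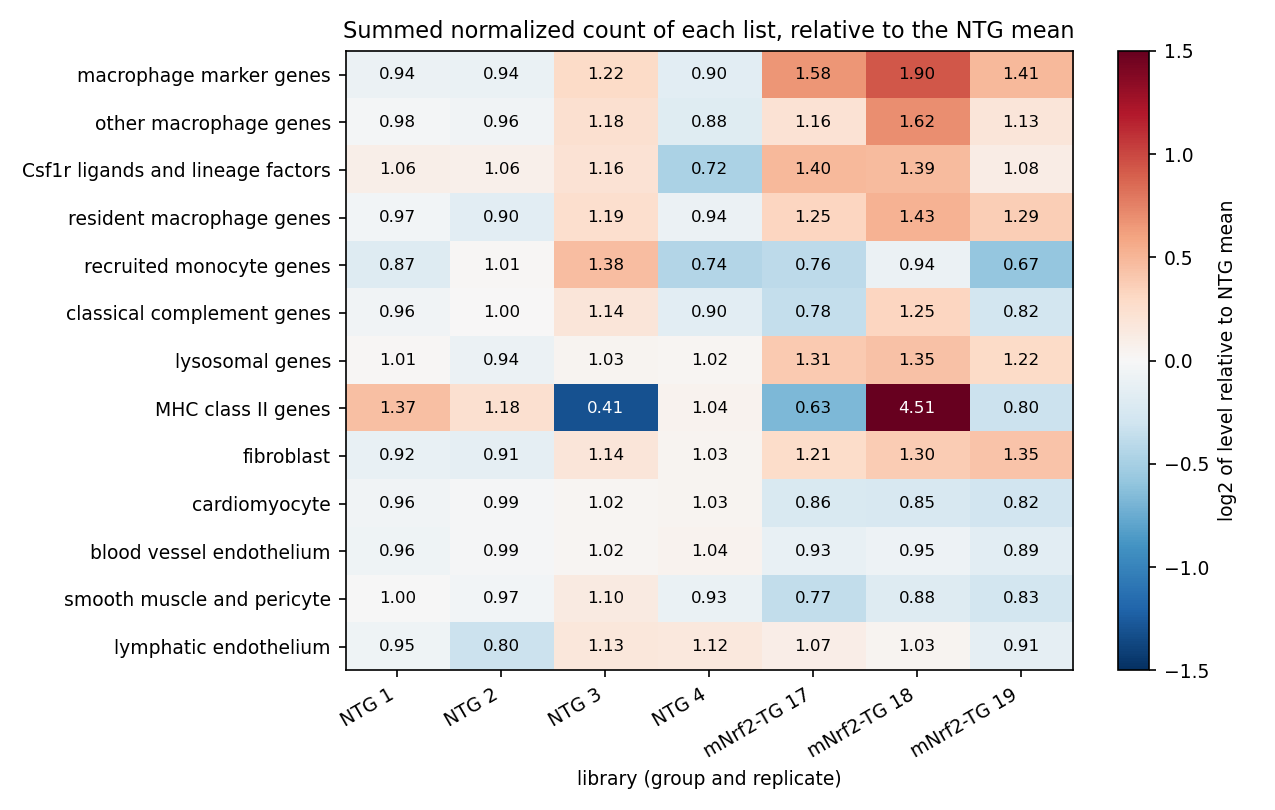
Summed normalized count of each gene list shown in each library (columns: group and replicate), divided by the NTG mean of that list and coloured on a log2 scale from blue (lower) to red (higher). The macrophage markers are at 1.41 to 1.90 in mNrf2-TG and 0.90 to 1.22 in NTG, and the MHC class II genes are at 4.51 in mNrf2-TG replicate 18 alone.

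The genes whose profile over the 7 libraries lay nearest to the mean of the 10 markers were sought among 7968 other genes with a mean of at least 100 normalized counts, by Euclidean distance between centred log2 values. The mean profile ran from -0.51 in NTG replicate 4 to -0.03 in NTG replicate 3 and from 0.23 in mNrf2-TG replicate 19 to 0.73 in replicate 18. The 5 nearest genes were Cyp27a1 (distance 0.204), the sterol 27-hydroxylase gene, then Abca9 (0.227), a lipid transporter gene, Klhl40 (0.297), a muscle Kelch gene, Galc (0.302), the gene of a lysosomal galactosidase, and Pygb (0.333), a glycogen phosphorylase gene. Of the 10 markers, C1qc (0.28) and C1qa (0.286) lay nearest to their common mean and Lyve1 (1.341) farthest.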

How the data were processed

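Whole hearts of 4 NTG and 3 mNrf2-TG mice were profiled by stranded, poly(A)-selected RNA sequencing with single reads of 50 bases. The authors aligned reads with Novoalign 2.08.01 and deposited counts per gene without normalization. The genome is named as hg19 in one place of the methods and mm10 (GRCm38) in another, and the counting program is not given in the sources used here. The authors also deposited a table with gene names, fold changes, p-values and a signal column, the mean of counts divided by DESeq2 1.32.0 size factors. Of these only the names were used, and the signal to check the join, where a recomputed mean deviated by at most 0.29%. The authors' rlog values and comparison were not used.

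Of 14665 entries, 24 repeats of a gene were removed, and 14637 genes with a summed count above 1 were tested with edgeR 4.0.16 under R 4.3.3 (TMM, quasi-likelihood test, no covariates). Standard errors were taken as |Log2FC| over √F. Tested on simulated data (14604 genes, of which 200 moved by a Log2FC of 1), the test found 87% of the moved genes, with 4.4% of calls false. Only genes above a floor of expected counts were moved, so the 87% does not cover genes with as few reads as Trem2 or Xcr1. Positions, exon lengths and overlaps came from GENCODE M21 (GRCm38) and promoters from RefSeq (GRCm38.p6). A count of 0.5 was added for ratios and 1 for profiles. Samples were grouped by the genotype labels. The members and gene lists were chosen with earlier results of these data known. Named genes were the 10 markers, up to 3 genes in each direction per list of macrophage genes, up to 2 per list of another cell type, Nfe2l2 and the 5 nearest profiles. One gene that this rule names is not reported here. Other genes named were chosen after their values were seen. Alternatives were DESeq2 1.42.0, limma-voom 3.58.1, other scaling and filters, and leaving out each library.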

Additional observations from a re-analysis of the deposited data

How the results depend on the processing

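Over the 14 alternatives, the number of macrophage markers that passed the test was 7, except for 8 without NTG replicate 3. The other tools, scalings and filters left it at 7. Leaving out 1 library at a time gave 1373 (without mNrf2-TG replicate 17) to 2950 (without NTG replicate 3) genes that passed among all genes, against 2519 with every library, and that of the 71 other genes on the macrophage lists 8 (without mNrf2-TG replicate 18) to 21 (without NTG replicate 3), against 19. Lyve1 changed sign without NTG replicate 3, from a Log2FC of -0.24 to 0.02, and its lowest value was -0.39, without NTG replicate 4. Of 516 fits of the 37 genes that the naming rule gives, 467 kept direction and call, 47 lost the call, 1 gained it and 1 changed sign. Other genes in the text were not counted here. Among them, Maf, Cbr2, F13a1, C1s1, C3, C1rl, C3ar1 and C4b passed in some alternatives but not with the main settings. The causes were not tested. Scaled by library totals in place of TMM, 1383 genes were higher and 1034 lower, against 1241 and 1278. The methods name litter mates as controls, but the labels used here give no litter or pair. A paired analysis was therefore not possible, and an effect of litter was not modelled. Counts under about 10 per library, as for Trem2 in NTG, limit precision. Where nothing says how the samples of a group relate, p-values measure only the spread between these libraries.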

Other observations

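The MHC class II genes, which present antigen on dendritic cells, B cells and some macrophages, were high in 1 heart. Their summed normalized count was 7813 in mNrf2-TG replicate 18, against 1091 and 1387 in replicates 17 and 19 and 702 to 2379 in NTG. For Cd74, the invariant chain, replicate 18 had 3500.5 normalized counts and the other mNrf2-TG libraries 563 and 631, with 388 in NTG replicate 3 and 804.5 to 1150.4 in the other NTG hearts. None of the 5 genes passed in edgeR, DESeq2 or limma-voom, where 17.2%, 18.8% and 17.3% of all genes did. In edgeR, 0 had an unadjusted p under 0.05, where 32.2% of all genes did (adjusted p = 0.303 for Cd74, 0.34 for H2-Aa). The intervals over 3 hearts are wide. The 10 macrophage markers were also highest in replicate 18, at 5852 against 4877 and 4325.

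Of 6 dendritic cell genes, Xcr1 rose and Clec9a fell, although both mark the cross-presenting type of these cells. Among all genes, 8.48% rose and 8.73% fell. Xcr1 was counted 2 to 5 times in NTG libraries and 7 to 15 times in mNrf2-TG libraries (Log2FC 1.66, adjusted p = 0.0418, edgeR), did not pass in DESeq2 (0.0859), and passed in 2 of the 7 fits that left out a library. Clec9a was counted 42 to 61 and 20 to 32 times (Log2FC -0.81, adjusted p = 0.0193), and passed in 4 of 7.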
